A study of Mus musculus with 74 samples.

Results

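Gm14406 is a mouse KRAB zinc finger protein (KRAB-ZFP) encoded in a gene cluster on chromosome 2, and its binding was mapped by ChIP-seq in F9 EC cells, a mouse embryonal carcinoma line. Its regions were the rows of the deposited peak table that carry its name: 5685 of 53255 peaks. The study expressed 1 epitope-tagged KRAB-ZFP per cell line to find which transposable elements each one binds, and each protein had 1 ChIP sample, so no value here has a replicate error and nothing was tested between proteins. Gm14406 carried 3 HA epitopes at its C terminus (C-3XHA) and was precipitated with the HA antibody ab9110. The comparison set was the 9 other F9 samples with the same tag, antibody, mapping with Bowtie2 and control: EtOHi1, Gm14326, Gm14391, Gm14393, Gm14410, Gm14412, Gm14418, Gm14436 and Gm6710, with 4793 peaks together.

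The control shared by all 10 samples, Gm14296_control, is itself labelled as an HA ChIP of F9 EC cells with the C-3XHA tag, so a site enriched there as well would be lost from all 10 lists; its part in the results was not tested. The proteins were overexpressed from stably integrated vectors in pooled puromycin-resistant clones, which may differ from the binding of the endogenous protein at its own level. Gm14406, Gm14412 and Gm6710 were called at a p threshold of 1e-10 and an enrichment over 20. EtOHi1, Gm14410 and Gm14436 were called at 1e-10 and an enrichment over 10, and the other 4 at 1e-5 and an enrichment over 10. The median deposited false discovery rate of those 4 lists was 100%, against 0 in Gm14406, where the highest was 0.04%. Peak numbers across these settings are therefore not comparable as they stand.

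KRAB-ZFPs are repressors with many zinc fingers, which read the DNA sequence, and a KRAB domain, which holds KAP1 (the product of Trim28). KAP1 acts as a platform for SETDB1, the enzyme that lays down H3K9me3, so chromatin at the bound site is silenced. Many of these proteins bind transposable elements and keep them silent in early embryonic cells. L1 elements are the most abundant autonomous retrotransposons of the mouse genome. A full-length L1 holds a short first reading frame for an RNA-binding protein and a long second one for an endonuclease and reverse transcriptase, and most genomic copies lack their 5′ part.

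The height of Gm14406 peaks was cut from below by the calling threshold of 20 in fold. The deposited fold enrichment had a median of 26.2 and spanned 20.0 to 132, and the middle 50% of peaks lay between 22.4 and 31.1. A peak held 22 to 313 tags (median 42), and its called width was 249 to 1429 bp (median 529 bp). Gm14412, the other long list at the same thresholds, had higher peaks, with a median fold of 33.4 and a median of 94 tags over 2787 peaks. Tags are the only depth the table holds, and all intervals below are 95% Wilson intervals that cover counting error only. Where a count is 0, the share it allows is that of 3 counts.

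The sequence that the Gm14406 peaks had in common is shown first, since the results turn on it. It is the 24-base word held by the largest number of multi-copy Gm14406 windows, a window being the 200 bp around a summit. A window was taken as multi-copy where the median genome copy number of its 24-base words was 10 or more. The word was present without mismatch in 4086 of the 5685 windows. It is written on the strand of the long reading frame it lies in, and positions are counted from 1 at its 5′ end. Below it stand the commonest form with 1 substitution, C8T, and 4 forms named below for how often they lay in a peak, with the changed base in capitals; genome positions follow the mouse build mm9.

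core: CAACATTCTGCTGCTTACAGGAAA
C8T: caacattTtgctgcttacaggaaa
T15C: caacattctgctgcCtacaggaaa
G20A: caacattctgctgcttacaAgaaa
C18T: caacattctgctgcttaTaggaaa
G21A: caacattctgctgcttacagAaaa

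A whole window shows the core in place. The Gm14406 peak at chr2:150202635-150202834, in intergenic sequence, had the highest fold of all windows with the exact core, 77.8, from 153 tags. It is printed on its minus strand, the strand of the core, with the core in capitals.

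chr2:150202635-150202834: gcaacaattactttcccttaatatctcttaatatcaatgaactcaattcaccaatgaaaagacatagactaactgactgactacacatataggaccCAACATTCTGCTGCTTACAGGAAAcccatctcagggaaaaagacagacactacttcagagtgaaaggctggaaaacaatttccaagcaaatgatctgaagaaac

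The copy number of the bound sequence set Gm14406 apart from the lists called against the same control. Of the 5685 windows, 4552 (80.1%) had a median copy number of 1000 or more, and the median over all windows was 7616 copies, with quartiles of 4923 and 8011. Multi-copy windows made up 91.6% of the list (5210 windows, interval 90.9% to 92.3%). The share was 80.3% in Gm14410 (interval 73.0% to 86.0%, 142 peaks) and 65.3% in Gm14412 (63.6% to 67.1%), and between 2.99% and 11.5% in the other 7. Gm14410 and Gm14412 windows differed in the size of the repeat families they fell in, with medians of 306 and 581 copies.

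**Figure D1:**
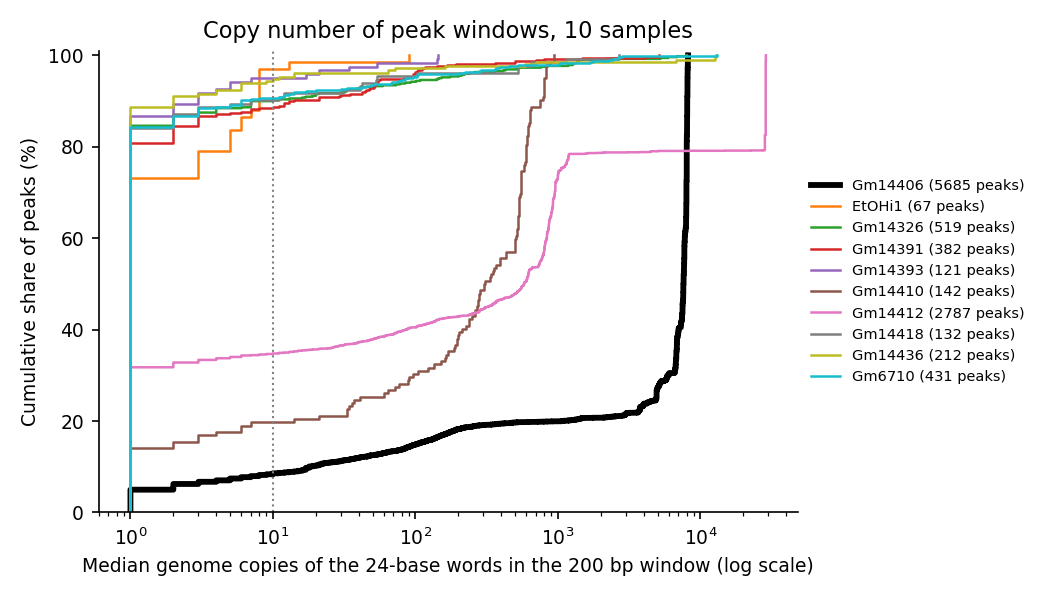
Cumulative share of the peaks of each of the 10 samples (y, percent) by the median genome copy number of the 24-base words in the 200 bp window (x, log scale), with 1 line per sample and a dotted line at the minimum of 10 copies. The Gm14406 line stays below 20% until about 1000 copies and then rises steeply, with a median of 7616 copies, while 7 of the other lines start above 70% at 1 copy.

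The core was found in most Gm14406 peaks and in almost no peak of the other proteins. At up to 2 mismatches it lay in 5131 windows, 90.3% of the list (interval 89.5% to 91.0%). Since the word was chosen as the most frequent one in the multi-copy windows, this share is in part fixed by the choice. Over the genome, 0.128% of 12791934 adjoining 200 bp tiles held it at the same allowance. Among the 4793 peaks of the 9 other proteins 2 held it (0.0417%), 1 of Gm14326 and 1 of Gm14436. None of the 2787 Gm14412 windows did, which allows a share of up to 0.108%. Over the 66 other KRAB-ZFP samples of the series, 16 of 47326 windows held the core (0.0338%), and 56 of the samples had none.

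The core sat at the summit. Along its own strand, the centre of the core lay at a median of -2.0 bp from the summit, with quartiles at -8.0 and 5.0 bp, and 4711 of the 5131 peaks (91.8%) had it within 25 bp. The place of the word within the window was not itself a criterion. However, a word near the summit stays inside more windows than a word near their edge. The centring is thus in part fixed by the choice of the most frequent word.

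**Figure D2:**
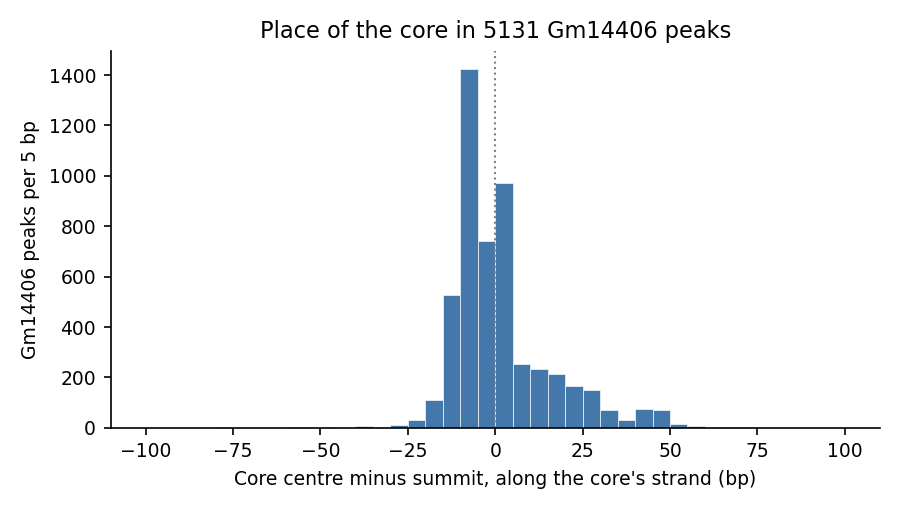
Number of Gm14406 peaks per 5 bp (y) by the distance of the core's centre from the summit along the core's strand (x, bp), for the 5131 peaks with the core at up to 2 mismatches. The bars gather at the summit, with a median of -2.0 bp and a longer tail on the positive side, where 5% of peaks lay beyond 30 bp.

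The core lay in a long open reading frame. Over 500 exact copies of the core taken evenly from the genome, 1 of the 6 frames had a median stop-free run of 389 codons, against 27 to 54 codons in the other 5. In 1421 exact copies the run reached 1200 codons or more. For 1384 of these, in which an ATG lay upstream of the core in that frame, the commonest run was 1300 codons, and in 1365 the core covered codons 44 to 50 counted from the first ATG. Upstream of that ATG, 1167 of the 1384 (84.3%) had a second open frame of 300 or more codons, most often of 357 codons, and the commonest gap between its stop and the ATG was 40 bp. This order of a shorter and a long frame is that of L1, in which the first part of the long frame encodes the endonuclease; no repeat annotation was used here. Read by this order, the core lies near the start of the second frame, and its strand is the L1 coding strand.

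Not every copy of the core lay in a peak. The genome held 7026 exact copies, of which 4086 (58.2%, interval 57.0% to 59.3%) lay in a Gm14406 window, called occupied from here on. The share fell to 9.67% of 7376 copies with 1 mismatch and 8.11% of 4092 copies with 2 mismatches. Since the core was chosen as the word held by most Gm14406 multi-copy windows, the higher share of exact copies is in part fixed by the choice. Of 4691 copies with 3 mismatches 3.82% were occupied, and of 6451 copies with 6 mismatches 0.419%. Among occupied copies, which by the calling threshold all had a fold of 20 or more, the median fold was 26.2 in peaks with the exact core, 24.3 with 1 mismatch, 26.0 with 2 and 29.1 with 3, which says nothing of the copies outside peaks. Reads of near-identical copies were placed at random among them, so a peak can stand on 1 copy for reads that came from another; its part in these shares was not tested.

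**Figure D3:**
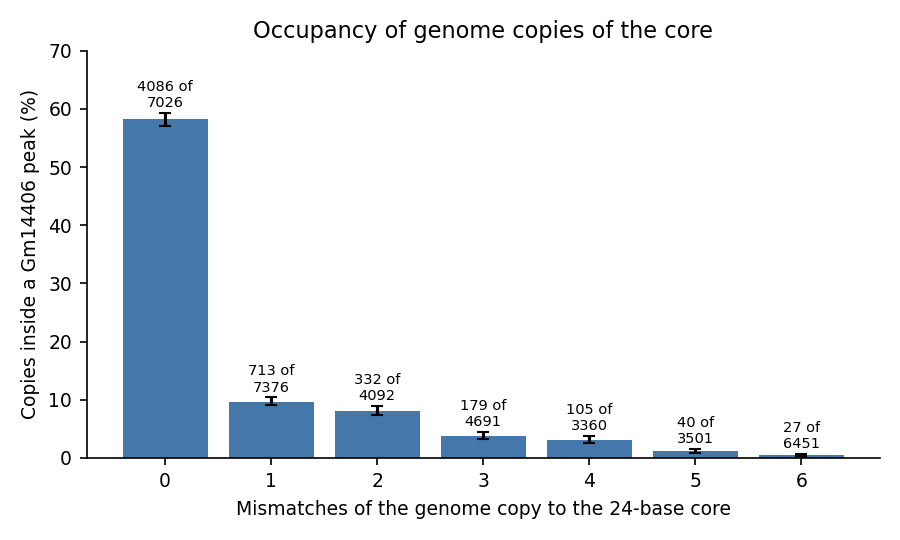
Share of genome copies of the core that lay inside a Gm14406 peak (y, percent) by the number of mismatches to the core (x). Bars carry 95% Wilson intervals and the counts. The share is 58.2% for exact copies, which is in part fixed by the choice of the core, 9.67% for 1 mismatch and 0.419% for 6.

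The 2 largest groups of copies differed by 1 base of the core. Of the 7376 copies with 1 mismatch, 5907 carried C8T, and 418 of these (7.08%, interval 6.45% to 7.76%) were occupied, against 58.2% of the exact copies. The choice of the core by its frequency in peaks fixes this contrast in part. The other changes at the same position did not go with so low a share: C8A was occupied in 15 of 32 copies (46.9%) and C8G in 17 of 28 (60.7%). The copies with C8T differed from the exact copies in the surrounding sequence too. Compared with the consensus of the 88 bases on either side of the occupied exact copies, 3103 exact copies but 32 C8T copies had at most 2 flanking mismatches. In that class 76.5% of the exact copies and 34.4% of the C8T copies (11 of 32, interval 20.4% to 51.7%) were occupied. With 3 to 5 flanking mismatches the shares were 49.7% of 2187 and 13% of 177 copies, with 6 to 10 they were 34.1% of 769 and 4.89% of 818, and with 11 to 20 they were 27.6% of 246 and 7.24% of 3717. The consensus was built from occupied copies, so the change along these classes is in part fixed by it. With over 20 flanking mismatches the share of exact copies was higher again, 41.1% of 721 against 6.45% of 1163 C8T copies, and the exact copies stood above the C8T copies in each class.

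The other single substitutions split the core into positions where a change went with few occupied copies and positions where it did not. The share over all copies with 1 mismatch was 9.67%, and over the 1469 without C8T it was 20.1%. Changes at position 15 stood near the level of the exact copies, with 51 of 84 occupied (60.7%, interval 50% to 70.5%). T15C was occupied in 27 of 38 copies (71.1%, interval 55.2% to 83.0%) and T15A in 18 of 38 (47.4%). G20A followed with 38 of 71 copies (53.5%). At the other end, C18T was occupied in 0 of 64 copies, which allows up to 4.69%, and G21A in 1 of 68 (1.47%). All changes at position 18 together were occupied in 4 of 127 copies (3.15%) and at position 21 in 2 of 90 (2.22%). The shares were 1 of 30 (3.33%) at position 22 and 1 of 18 (5.56%) at position 23, both with few copies. They were 5 of 93 (5.38%) at position 1, 8 of 112 (7.14%) at position 4 and 4 of 46 (8.70%) at position 24. Changes at positions 10 to 14 were occupied in 10.9% to 17.4% of copies, and changes at positions 5 to 9 other than C8T in 34.8% to 53.3%.

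**Figure D4:**
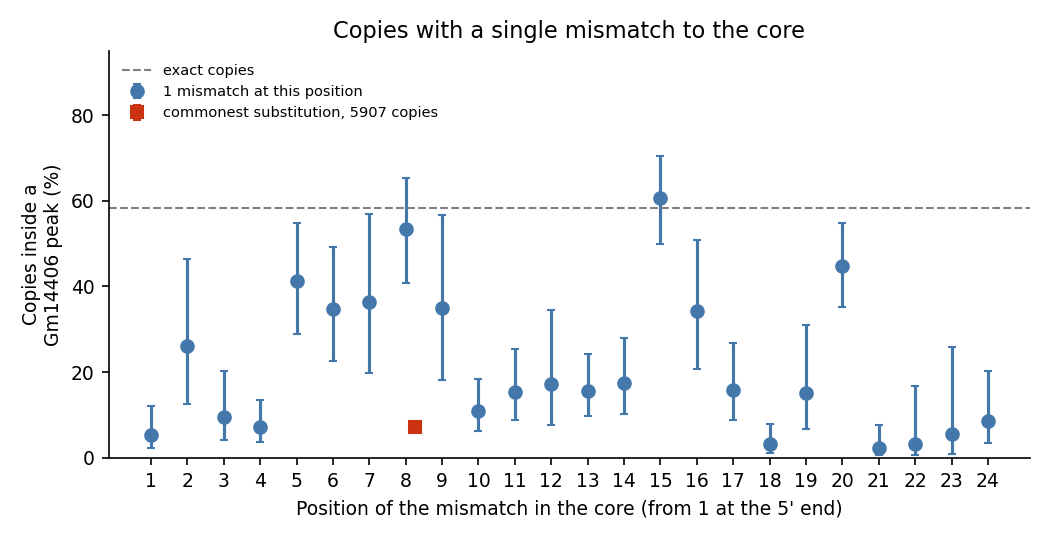
Share of genome copies with exactly 1 mismatch to the core that lay inside a Gm14406 peak (y, percent) by the position of the mismatch (x, counted from the 5′ end), with 95% Wilson intervals. Round points leave out the commonest substitution, which is the square at position 8 (5907 copies, 7.08%); the dashed line marks the 58.2% of exact copies, which the interval at position 15 spans and those at positions 18 and 21 lie far below.

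Copies with several substitutions differed widely. Beside C8T alone at 7.08%, C8T with T15C was occupied in 45 of 111 copies (40.5%, interval 31.9% to 49.8%) and C8T with T15A in 164 of 679 (24.2%). C8T with T15A and G20A was occupied in 33 of 76 copies (43.4%), although it holds 3 mismatches. The 3 largest groups with C8T and a change at position 11, 18 or 21 held no occupied copy: 0 of 262 with C11T, 0 of 158 with G21A, and 0 of 142 with C18T. The largest group with no occupied copy, 1196 copies with C8T, C14T and A23G, had 0 as well, which allows up to 0.251%. C8T with A5T was occupied in 1 of 87 copies (1.15%), below C8T alone. A5T alone was occupied in 3 of 20 copies, against 41.2% for all single changes at position 5 together.

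Over all 22095 copies with 2 to 6 mismatches, 683 were occupied (3.09%). Among those 683, positions 12 and 22 kept the core base in every copy, and positions 11, 18 and 23 in all but 1. Unoccupied copies kept it in 94.5% at position 12 and 94.4% at position 22. At positions 11, 18 and 23 they kept it in 83.9%, 82.9% and 86.8%. Position 15 kept it in 20.5% of the occupied copies and in 52.5% of the unoccupied ones, and copies changed at position 15 were occupied more often (5.07% of 10704) than copies that kept it (1.23% of 11391). Positions 6, 7, 8 and 20 had a difference of the same sign, with 3.22% of the changed and 3.08% of the kept copies occupied at position 6. The shares were 5.73% of the changed and 2.88% of the kept copies at position 7, 3.83% and 1.08% at position 8, and 3.73% and 2.89% at position 20. The sign at position 8 is opposite to that of C8T alone against the exact copies. Most copies with 2 to 6 mismatches, 16168 of 22095, were changed there. In this pooling a copy changed at a position has fewer mismatches elsewhere than a copy of the same total that kept it. With mismatches elsewhere held equal, the core base at position 8 went with a higher share than C8T. The shares were 18.7% against 8.20% with 1 elsewhere, 5.26% against 3.58% with 2, 8.22% against 2.96% with 3, and 3.56% against 1.16% with 4. The intervals overlapped at 2. Other positions were not compared in this way.

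The single-copy peaks, which were not used to choose the core, carried relatives of it. A median copy number of 1 was found in 283 windows (4.98%), with a median fold of 28.2 and a median of 55 tags, against 26.2 and 41 tags in windows of 1000 copies or more. None of the 283 held the exact core, which allows up to 1.06%, 15 (5.30%) held it at up to 2 mismatches and 116 (41.0%, interval 35.4% to 46.8%) at up to 6. Of 2469 single-copy windows of the 9 other proteins, 2 held it at up to 6 mismatches (0.0810%). In the 116 windows the base at position 15 was changed in 111 (95.7%), at position 20 in 82 (70.7%) and at position 8 in 78 (67.2%), while positions 11, 12, 18, 21, 22 and 23 were changed in none. The core centre lay at a median of -3.0 bp from the summit in these windows.

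The 5 single-copy peaks of the highest fold are shown with 20 bases on either side of the best match to the core, on the strand of the match. The stretch in capitals is the best match, whatever its number of mismatches.

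chr10:41135958-41136021: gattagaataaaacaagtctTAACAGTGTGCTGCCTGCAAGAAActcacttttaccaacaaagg
chr16:33650843-33650906: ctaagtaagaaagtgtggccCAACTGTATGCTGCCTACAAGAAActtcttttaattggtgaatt
chr7:124660497-124660560: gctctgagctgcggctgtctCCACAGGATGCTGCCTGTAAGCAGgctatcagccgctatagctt
chr12:46954646-46954709: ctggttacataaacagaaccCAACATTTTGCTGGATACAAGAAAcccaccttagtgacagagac
chr7:31540093-31540156: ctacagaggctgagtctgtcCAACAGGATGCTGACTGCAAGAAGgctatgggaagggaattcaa

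The first had the highest fold of all 5685 peaks. It lay in an intron of Akd1, an adenylate kinase family gene, with a fold of 132 and 313 tags, and its match differed by C1T, T6G, C8G, T15C, A17G and G20A. The second, in an intron of Slc12a8, a solute carrier gene, had a fold of 84.6 and differed by A5T, T6G, C8A, T15C and G20A. The third, in an intron of Xylt1, which encodes a xylosyltransferase of proteoglycan synthesis, had a fold of 82.8 and 10 mismatches. The fourth was intergenic with a fold of 79.7 and differed by C8T, C14G, T15A and G20A. The fifth, in an intron of Sbsn, which encodes suprabasin of the epidermis, had a fold of 77.8 and 8 mismatches. All 5 were changed at positions 8, 15 and 20. The third also carried C18T and A22C, and the third and the fifth carried A24G. Positions 18 and 22 were unchanged in the 116 single-copy windows with the core at up to 6 mismatches, which leave out the third and the fifth.

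A shorter form of the core was taken from the multi-copy peaks and looked for in the single-copy ones. It keeps the 10 positions at which at least 99% of the 411 occupied copies with 2 to 6 mismatches in multi-copy peaks held the core base, with N for any base: CNNNNNNNNNCTGNNNNCANGAAA, searched on both strands. It lay in 146 of the 283 single-copy Gm14406 windows (51.6%, interval 45.8% to 57.4%) and in 40 of the 167 single-copy windows without the core at 6 mismatches (24%). In the 2469 single-copy windows of the 9 other proteins it lay in 1 (0.0405%), and in every 50th 200 bp tile of the genome in 559 of 255850 (0.218%). A match describes the letters only.

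The core at 6 or fewer mismatches was not found in 203 Gm14406 windows (3.57%), of which 167 were single-copy. Their median fold was 28.2 and their highest 109. The commonest 24-base word among them was in 15 of the 203 windows, with a median fold of 29.2 and a median window copy number of 1. It had 75 exact copies in the genome, of which these 15 were occupied. The window with the highest fold among them was an intergenic peak with a fold of 67.1 and 150 tags. Its best match to the core had 10 mismatches, and likeness of the word to the core was not tested. It is shown with this word in capitals, on the minus strand.

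chr15:33938435-33938538: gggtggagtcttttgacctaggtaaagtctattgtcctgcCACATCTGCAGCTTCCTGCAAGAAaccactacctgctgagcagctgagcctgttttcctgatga

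Length of the open frame went with a modest difference in occupancy. Of the 2046 exact copies with a stop-free run under 200 codons 49.1% were occupied (interval 47.0% to 51.3%), and of the 1421 with 1200 codons or more 67.1% (64.7% to 69.5%). Among C8T copies the shares were 5.69% of 2373 and 10.5% of 1604. Sequence close to the core also differed between occupied and unoccupied exact copies. At 11 of 176 flanking positions the share of copies with the commonest base differed by over 5 percentage points. The commonest base was that of the occupied copies, so a higher share among them is in part fixed by the choice. The largest difference, 71 bases downstream, was 51.8% against 24%.

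Peaks and exact core copies were both denser on chromosome X than on the autosomes. Chromosome X held 530 peaks, or 3.27 per Mb of sequence without gaps, against 2.15 per Mb on the autosomes, a ratio of 1.52. Exact core copies were denser on X as well, with 4.77 against 2.60 per Mb, a ratio of 1.83. The share of exact copies that was occupied was 53.9% on X (interval 50.4% to 57.4%) and 58.7% on the autosomes (57.5% to 60.0%). The lowest density of peaks was on chromosome 11, with 1.44 per Mb at 1.37 exact copies per Mb. Chromosome Y, of which mm9 assembles little, held 11 peaks and 24 exact copies. F9 cells can differ from the reference genome in copy number and in their L1 copies, and this was not tested.

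**Figure D5:**
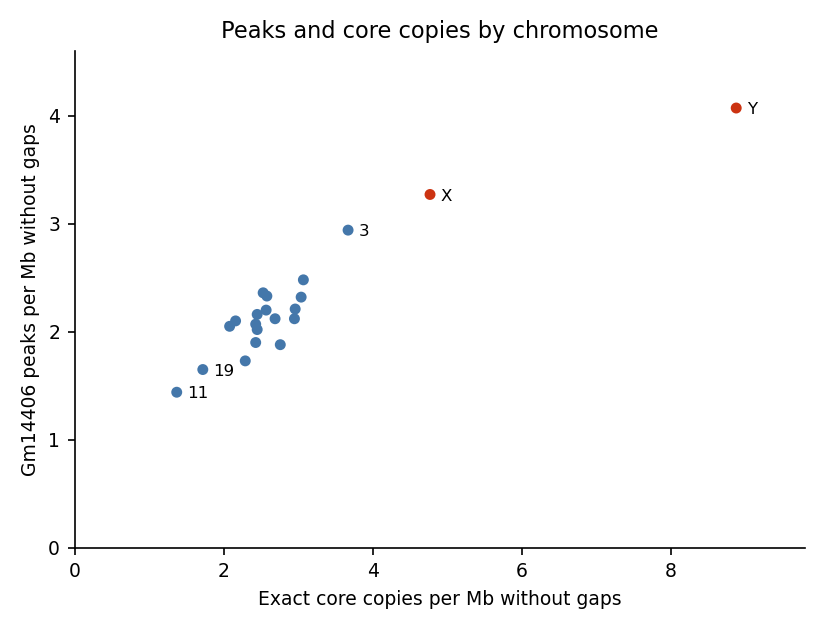
Gm14406 peaks per Mb (y) against exact copies of the core per Mb (x), both per Mb of assembled sequence without gaps, with 1 point per chromosome; autosomes are blue, X and Y red, and 5 chromosomes are labelled. The lowest point is chromosome 11 (1.37 copies and 1.44 peaks per Mb), and the highest are X (4.77 and 3.27) and Y (8.88 and 4.07); among the autosomes in between the order is not strict, as chromosome 14 (2.76 and 1.88) lies below chromosome 9 (2.08 and 2.05).

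Most peaks lay outside genes. By the GENCODE annotation of the same build, 4455 summits (78.4%) were intergenic, 1211 (21.3%) intronic, 12 in coding exons, 3 in UTRs and 4 in non-coding exons, and 30 lay within 1 kb of a transcript start. Of all 7026 exact copies of the core 80.7% were intergenic and 19.2% intronic, and 57.4% of the intergenic and 61.3% of the intronic copies were occupied. In introns the L1 coding strand ran against the gene in 680 of 1037 peaks with the core and 1 gene strand (65.6%, interval 62.6% to 68.4%). The share was 66.1% of 816 occupied and 67.7% of 514 unoccupied exact copies, so the orientation of the occupied copies did not differ from that of the others beyond their intervals.

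Of 37273 annotated genes 930 (2.50%) held at least 1 summit, and of the 2546 genes longer than 100 kb 583 (22.9%) did. The genes with most peaks were long. Agbl4, a cytosolic carboxypeptidase gene of 1267 kb on chromosome 4, held 10 peaks and 12 exact copies of the core, of which 10 were occupied. Cntnap2, a neurexin-family adhesion gene of 2241 kb, held 7 peaks. Fgf14, Galntl6 and Pcdh15 held 6 each, and 5033411D12Rik, Dlg2, Gm11906, Gpc5 and Itgbl1 held 5 each. In all 15 genes held 5 or more, and those named among the genes with 5 are the first by name. In Fgf14, which encodes an intracellular fibroblast growth factor homologue, all 6 cores ran against the gene. In Agbl4 4 ran with the gene and 6 against it, and in Dlg2, a synaptic scaffold gene, 3 and 1.

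Peaks in exons and at starts were few, and several were single-copy. The highest in an exon was in the UTR of Nap1l2, a nucleosome assembly protein gene on X, at chrX:100381708-100381907, with a fold of 57.0 and 137 tags, 171 bp from a transcript start and with no match to the core under 12 mismatches. Trem2, a receptor gene of myeloid cells, held a peak of fold 39.6 in a coding exon, and Slc4a3, an anion exchanger gene, one of fold 34.8 in a UTR, with 9 and 10 mismatches. The coding exons of the gene models Gm17316 and Gm17646 held peaks of fold 49.6 and 35.0 with copy numbers of 8052 and 8141 and the core at 1 and 0 mismatches. Within 1 kb of a start, the highest after Nap1l2 was at the vomeronasal receptor pseudogene Vmn2r-ps58 (fold 54.9), with Gm17316 next, followed by Psme4, which encodes a proteasome activator (fold 40.8), and Gm11736 (fold 35.0).

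Among multi-copy peaks the highest folds were 112 at chr18:9586960-9587159, 87.5 at chr5:76601601-76601800, 80.4 at chr4:23288883-23289082 in an intron of Gm11884, 78.7 at chr2:56656387-56656586, and 77.8 at the chromosome 2 window printed above. Their cores had 1, 1, 3, 2 and 0 mismatches, and 4 of the 5 had copy numbers under 100, with 5837 at the chromosome 5 window.

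Of 19 annotated genes of KAP1 and L1 silencing 1 held a peak (5.26%), against 2.50% of all genes, and the genes of the list were longer, with a median of 29.2 kb against 5.38 kb over all genes. This was Atf7ip, which encodes a partner of SETDB1, with 2 intronic peaks: 1 at chr6:136516669-136516868 with a fold of 67.2 and 9 mismatches to the core, and 1 at chr6:136528852-136529051 with a fold of 50.2 and 6 mismatches. The gene held no exact copy of the core. None of 15 annotated pluripotency genes held a peak. Of 63 annotated KRAB-ZFP genes assayed in the series 1 did, Gm13152, with an intronic peak of fold 23.3 and the core at 1 mismatch.

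Few Gm14406 positions were shared with the other proteins. The number of shared or nearby positions to be met by chance was not computed, so the counts below are a description only. With windows overlapping by at least 25%, 6 of its 5685 peaks (0.106%) were shared with any of the 9 others. Gm14326 and Gm14418 shared 2 each, 0.0352% of the Gm14406 list and 0.385% and 1.52% of their own. Gm14393, Gm14436 and Gm6710 shared 1 each. EtOHi1, Gm14391, Gm14410 and Gm14412 shared 0, which allows up to 0.0528% of the Gm14406 list. Gm14412 summits came within 1 kb of a Gm14406 summit in 2 of 2787 cases and within 8 kb in 74 (2.66%). Gm14406 peaks themselves were spread out: the median distance to the next was 213745 bp, 164 neighbours lay within 10 kb and 1 within 1 kb.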

How the data were processed

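The authors mapped paired reads to mm9 with Bowtie2, which put a read that fits several places equally well at 1 of these, drawn pseudo-randomly, called peaks for each sample with MACS 1.4.2 against the control ChIP, and set each peak to 200 bp around its summit; samples were not pooled. A read from 1 copy of a repeat can thus be counted at another. Each deposited row gives the raw count of tags, a score (10 times the negative log10 of the MACS p-value), the fold enrichment as a ratio and the false discovery rate as a percent; positions and widths are in bp. Total reads per library were not used here.

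From these, the genome copies of every 24-base word in a window were counted on chromosomes 1 to 19, X and Y of NCBIM37 (mm9), on both strands, with Python 3.11.15 (NumPy 2.4.6, pandas 2.3.3, numba 0.67.0). Starts were read as 0-based. The core was scanned with up to 6 mismatches, and a copy was occupied where it lay whole within a 200 bp window. Stop-free runs were read over 6000 bp on either side. Summits were placed with GENCODE vM1, coding exons first, then UTRs, other exons and introns. On a simulated genome 11 of 11 planted values were recovered. Each protein had 1 sample, so no test was run. The members, the lists and the measures were chosen with earlier results of these data known. Genes named were the 10 with most peaks (ties by name), the 5 with the highest fold in a coding exon or UTR and the 5 within 1 kb of a start; peaks named were the 5 of highest fold among multi-copy and among single-copy windows; the substitutions, combinations and the word of the peaks without the core were picked with their values in view. The table also held 244 rows of 1 name that matched no label, which were not used.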

Additional observations from a re-analysis of the deposited data

How the results depend on the processing

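Of 52 alternatives 34 left a value within its interval or count range. Many of these were shares of peaks in common with another list, which stood at or near 0 and had little room to move. None turned a direction, though most values are single shares or counts that have none to turn. A minimum fold of 30 left 1787 Gm14406 peaks and of 40 left 444, while a false discovery rate of at most 1% kept all 5685. The multi-copy share of 91.6% became 85.2% with a minimum of 100 copies, 95% with 2 copies, 85.5% with 36-base words and 88.2% at a fold over 30. The share with the core, 90.3% at 2 mismatches, was 71.9% at 0, 95.3% at 4 and 86.1% at a fold over 30. The occupied share of exact copies, 58.2%, was 18% at a fold over 30, where fewer peaks were counted. With every list held to p under 1e-10 and fold over 20, the shares of Gm14406 peaks shared with Gm14326 and Gm14436 were both 0. Gm14326 had 1 peak left and Gm14436 33, so the 0 of Gm14326 was nearly fixed by the length of its list. Under the same limits Gm14393 and Gm14418 had no peak left. The multi-copy share was then 36.4% of 11 peaks in Gm14391 and 60.0% of 55 in Gm14410. No paired analysis was possible because each protein had 1 sample. With 1 library for Gm14406 no value could be set against a replicate.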
